A study of Mus musculus with 65 samples.

Results

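Kv3 channels are voltage-gated potassium channels, and 3 of their pore genes, Kcnc1 (Kv3.1), Kcnc2 (Kv3.2) and Kcnc4 (Kv3.4), were taken by name from a table of 11875 named genes in 65 single mouse neurons. All 3 were listed. The cells were labelled HSD2 neurons from the NTS, the nucleus of the solitary tract, where signals from the viscera enter the brainstem. They came from male mice of mixed strain that carried Hsd11b2-Cre and the reporter Ai9, so that a cell in which Cre has acted at any time is red with tdTomato, and red cells were picked by hand after papain digestion and sequenced with Smart-Seq2, a full-length cDNA method. The diet was standard chow for 33 cells and low sodium for 32 cells, and both groups shared the driver, the reporter, the sex and the strain label. The protocol text names Arc-ME as the digested tissue while the tissue label gives the NTS, which was taken here. No label names an animal, so each diet is 1 sample, cells are not its replicates, no test between diets was run, and every SD below is the spread over cells.

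Kv3 channels open only at strongly depolarised voltages and close quickly, which makes the falling phase of the action potential steep and leaves sodium channels time to recover. They are best known from neurons that fire fast and from axon terminals with narrow action potentials. Channels of Kv3.1 and Kv3.2 stay open during a maintained depolarisation, whereas Kv3.4 inactivates within milliseconds through its N-terminal segment. Subunits of the family can assemble with each other into mixed tetramers, so which genes share a cell bears on which channels are possible there.

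The library depth recovered from the deposited values was 50072 to 5317020 reads per cell over the listed genes, with a median of 602275 in chow and 693738.5 in low sodium. CPM, the read counts scaled to a common total, summed to over 1200000 in 9 cells, all of them low sodium, and to less in the other 56, so the main values are given with and without these 9 cells. At least 3 of 8 pan-neuronal markers exceeded 10 CPM in all 65 cells, and so did at least 3 of 6 HSD2 identity genes. At least 3 markers of astrocytes, oligodendrocytes or vascular cells exceeded 10 CPM in 32 cells, 17 chow and 15 low sodium. All 8 astrocyte markers, 6 of 8 oligodendrocyte markers and 5 of 8 vascular markers were listed, and the lists passed in 11 chow and 3 low-sodium cells, in 10 and 12 cells, and in 1 and 2 cells, in that order. Summed astrocyte markers ran from 0 to 2489 CPM in chow (median 30.7) and from 0 to 1045 CPM in low sodium (median 10.2). Summed oligodendrocyte markers ran from 0 to 7060 CPM in chow (median 216) and from 17.1 to 13737 CPM in low sodium (median 238). Summed vascular markers ran from 0 to 1434 CPM in chow (median 4.86) and from 0 to 6056 CPM in low sodium (median 0). None of 7 microglial markers is among the listed genes.

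The 3 genes are protein-coding and lie far apart in the mouse genome (GRCm38). Kcnc1 is at chr7:46396497-46438704 on the plus strand, Kcnc2 at chr10:112271121-112467024 on the plus strand, and Kcnc4 at chr3:107438303-107459552 on the minus strand. None of the 3 overlaps another annotated gene. Over whole transcripts the 3 members shared no run of 50 bases with each other, so reads of that length that match a member fully are not split among the 3.

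All 3 members were widespread. Kcnc2 transcripts were found in 64 of 65 cells (98.5%, exact Clopper-Pearson 95% interval 91.7% to 99.96%), Kcnc4 in 63 cells (96.9%, 89.3% to 99.6%) and Kcnc1 in 62 cells (95.4%, 87.1% to 99.0%). After each cell was thinned to 50000 reads, the shares were 96.9% for Kcnc2, 95.4% for Kcnc4 and 90.8% for Kcnc1. These intervals cover counting error over cells only. The series holds no other cell type in which the share from free RNA could be read.

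Kcnc2, the gene of a sustained, non-inactivating Kv3 channel, had a mean log2(CPM + 1) of 7.65 ± 1.80 (SD, n = 65 cells). Its lowest, median and highest chow values were 0, 7.48 and 9.62, and the low-sodium cells ran from 4.04 through a median of 8.13 to 11.68. The ranges of the diets overlapped from 4.04 to 9.62. The 6 low-sodium cells that lay above every chow cell all belonged to the 9 cells with high CPM sums. The cell at 0 was chow neuron 45, the shallowest library, in which 3 reads, the limit that a count of 0 allows, stand for 48.4 CPM.

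Kcnc4, the gene of the fast-inactivating member, had a mean log2(CPM + 1) of 6.61 ± 1.81. The chow cells ran from 0 through a median of 6.70 to 8.08, and the low-sodium cells had 0, 6.79 and 10.38 as lowest, median and highest value. Of 7 low-sodium cells above every chow cell, 6 were among those with high CPM sums. The cells at 0 were chow neuron 60 and low-sodium neuron 34, where 3 reads stand for 4.09 and 3.53 CPM, so these libraries were not shallow.

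Kcnc1, the gene of the Kv3 channel best known from auditory brainstem and fast-spiking interneurons, had a mean log2(CPM + 1) of 6.45 ± 1.95. Its values in chow ran from 0 through a median of 6.23 to 8.38, and in low sodium from 4.81 through 7.14 to 9.73. The top of the range overlapped, with 5 low-sodium cells above every chow cell, of which 3 had high CPM sums, while 5 of 33 chow cells lay below every low-sodium cell. Of those chow cells, neurons 1, 36 and 68 were at 0, with 857022, 602275 and 95269 reads and a 3-read limit of 3.23, 4.24 and 26.3 CPM.

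**Figure D1:**
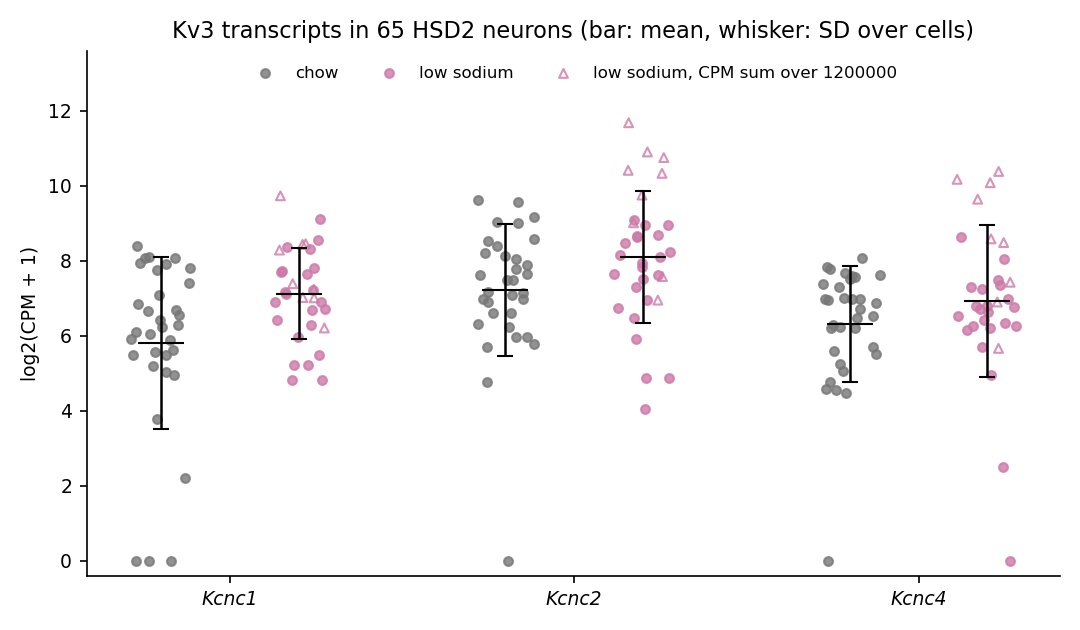
Level of Kcnc1, Kcnc2 and Kcnc4 as log2(CPM + 1) on the vertical axis, 1 point per cell, by gene and diet (33 chow and 32 low-sodium cells). Open triangles are the 9 low-sodium cells whose CPM sum to over 1200000, the long bar is the mean and the whisker the SD over cells. Most cells hold each gene between 4 and 10, and the highest Kcnc2 and Kcnc4 values are triangles.

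To compare genes, CPM were divided by the length of the merged exons, since longer transcripts give more reads. On that scale Kcnc2 had a mean level of 52.8 CPM per kb and a median of 28.1, Kcnc4 48.9 and 29.7, and Kcnc1 15.8 and 11.0. Leaving out the 9 cells gave means of 33.2, 30.3 and 13.7 CPM per kb. Kcnc2 and Kcnc4 could not be ordered against each other: of 62 cells that held both, Kcnc2 was higher in 33 and Kcnc4 in 29, and the median ratio of Kcnc2 to Kcnc4 in a cell was 1.08. Kcnc1 lay below both, lower than Kcnc2 in 47 of 61 cells and lower than Kcnc4 in 45 of 60, with median ratios of 0.41 and 0.302.

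Among 24 listed pore genes of voltage-gated potassium channels, Kcnc2 ranked 2 and Kcnc4 ranked 3 by mean CPM per kb, and Kcnc1 ranked 6. Over all 11427 named genes with a length, Kcnc2 ranked 1125 and Kcnc4 1240, both within about the top 10.9%, and Kcnc1 ranked 3747. Without the 9 cells Kcnc2 and Kcnc4 again ranked 2 and 3 among the pore genes and Kcnc1 ranked 5, and over all genes the ranks were 1783, 1958 and 3924. The only listed pore gene above Kcnc2 was Kcnq1, at 73.6 CPM per kb, which encodes a slow delayed rectifier known from heart and epithelia. The antisense gene Kcnq1ot1 lies within the Kcnq1 locus and overlaps 121 of its exon bases, and use of strand in the counting is not given in the sources used here, so that level may hold antisense reads. Kcnh2, which encodes the ERG channel, followed at 27.4 CPM per kb. Kcna3 (Kv1.3) was at 16.8 CPM per kb, just above Kcnc1, but was above 0 in only 35 cells, and without the 9 cells it was at 9.57 CPM per kb, below Kcnc1. Both Kcnh2 and Kcna3 also have an antisense gene at the locus, with no shared exon bases. All ranks in this paragraph are by merged exon length, and ranks by coding length or by undivided CPM were not taken. The order can depend on that choice, since Kcnq1 has 2401 coding bases in 4093 merged exon bases and Kcnc2 has 2306 in 7138.

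**Figure D2:**
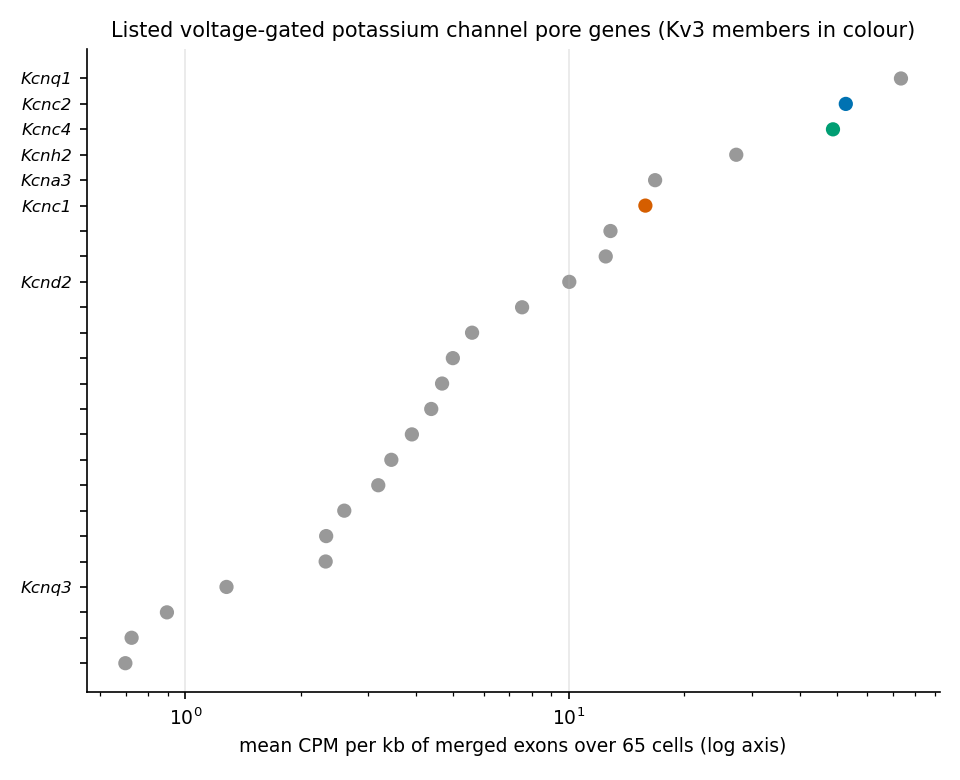
Mean CPM per kb of merged exons over 65 cells, on a log axis, for 24 listed voltage-gated potassium channel pore genes, 1 point per gene, with the 3 members in colour and names only beside genes that the text gives. Kcnc2 (52.8) and Kcnc4 (48.9) stand next to Kcnq1 (73.6) at the top, and Kcnc1 (15.8) is 6th.

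The first question for a family that can form mixed channels is whether its genes share a cell. All 3 members were found together in 59 of 65 cells (90.8%, 81.0% to 96.5%), and the other 6 cells held 2 of them. No cell held fewer than 2, which with 0 of 65 cells allows a share of up to 5.52% (exact 95% upper bound). Kcnc1 and Kcnc2 shared 61 cells, Kcnc1 and Kcnc4 60, and Kcnc2 and Kcnc4 62. At 10 CPM or more, all 3 were together in 57 cells (87.7%), and in libraries thinned to 50000 reads in 54 (83.1%). By diet, all 3 were held by 28 of the 33 cells on chow (84.8%, 68.1% to 94.9%) and by 31 of the 32 on low sodium (96.9%, 83.8% to 99.9%). In the thinned libraries these counts were 27 and 27.

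Within a cell the lead was divided between Kcnc2 and Kcnc4. By CPM per kb, Kcnc2 was the highest of the 3 in 32 cells (49.2%, 36.6% to 61.9%), Kcnc4 in 27 (41.5%, 29.4% to 54.4%) and Kcnc1 in 6 (9.23%, 3.46% to 19.0%). Averaged over cells, Kcnc2 made up 42.1% ± 21.8 (SD) of the summed CPM per kb of the 3 genes, Kcnc4 40.1% ± 21.6 and Kcnc1 17.8% ± 15.2. Shares in single cells ran from 0% to 94.4% for Kcnc2, from 0% to 86.2% for Kcnc4 and from 0% to 58.0% for Kcnc1. Each of the 3 thus led in some cells and was minor in others.

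The size of the lead varied between cells, with a median of 2.06 times in chow and 1.84 times in low sodium. The leading gene exceeded the next by a median of 1.95 times, by less than 2 times in 34 cells and by 2 times or more in 31, of which Kcnc2 led 15, Kcnc4 15 and Kcnc1 1. A lead of 10 times or more was found in 2 cells, both low sodium and both with a high CPM sum. In neuron 51 Kcnc2 was at 460 CPM per kb, 33.8 times the next, and in neuron 45 Kcnc4 was at 218 CPM per kb, 12.4 times the next.

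The order depends on the length by which reads are divided. Per kb of coding sequence, Kcnc2 led 50.8% of cells, and Kcnc1 and Kcnc4 24.6% each. With CPM not divided by length, Kcnc2 led 61.5%, Kcnc1 20% and Kcnc4 18.5%. Kcnc2 led the most cells on all 3 scales, whereas Kcnc4 came ahead of Kcnc1 by merged exons, level with it by coding length and behind it without division. Kcnc1 has 1784 coding bases in 9458 merged exon bases, and Kcnc4 has 1884 in 3667. Which transcripts of each gene these neurons use was not analysed here.

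By diet, Kcnc2 led in 14 cells on chow (42.4%, 25.5% to 60.8%) and in 18 on low sodium (56.3%, 37.7% to 73.6%). Kcnc4 led in 16 (48.5%, 30.8% to 66.5%) and 11 (34.4%, 18.6% to 53.2%), and Kcnc1 in 3 of each. The mean makeup was 41.8% Kcnc2 in chow and 42.4% in low sodium, 41.1% and 39.0% Kcnc4, and 17.0% and 18.5% Kcnc1. Among cells without at least 3 non-neuronal markers the diets lay further apart. There Kcnc2 led 8 of 16 chow and 13 of 17 low-sodium cells, and Kcnc4 led 8 and 3. Mean shares were 44.0% and 53.0% for Kcnc2, and 41.6% and 31.5% for Kcnc4. These 17 low-sodium cells include 7 of the 9 cells with high CPM sums and the 16 chow cells none. The counts and shares of this subset without those 7 cells were not worked out. The intervals cover counting error over cells, which is not the spread between animals, and no comparison of diets can be read from them.

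**Figure D3:**
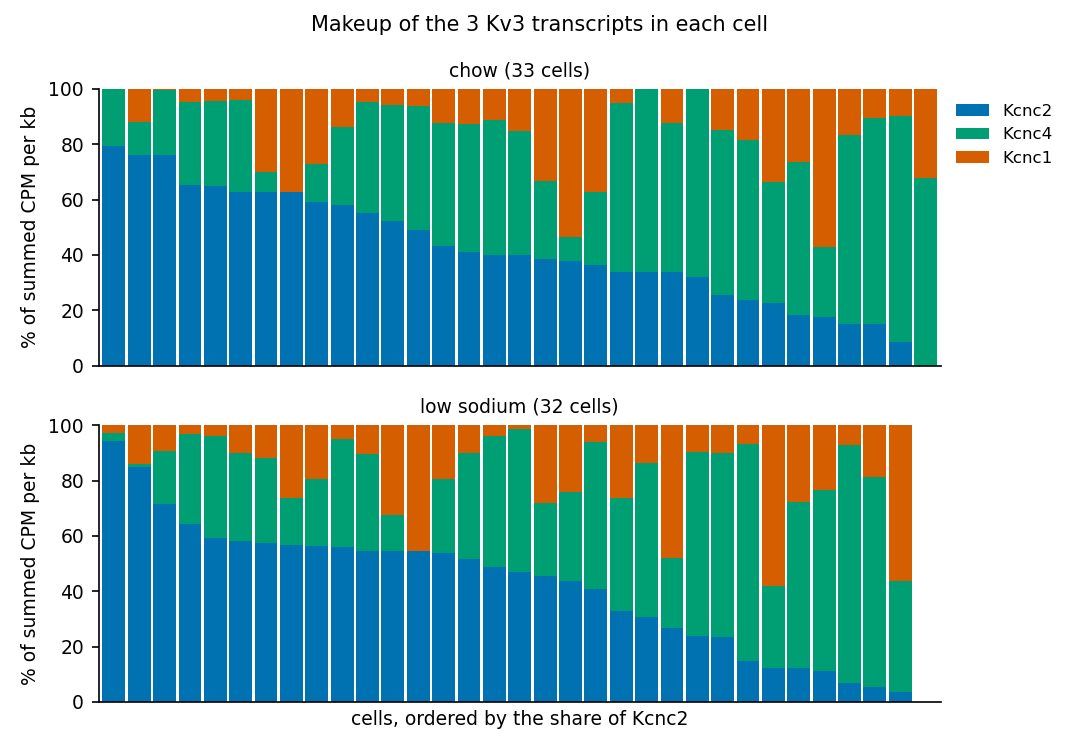
Share of each gene in the summed CPM per kb of Kcnc1, Kcnc2 and Kcnc4 (vertical axis, %), 1 bar per cell, ordered by the share of Kcnc2 within each diet. The share of Kcnc2 falls from 79.4% to 0% over the chow cells and from 94.4% to 3.54% over the low-sodium cells, with Kcnc4 taking most of the rest.

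The mean level of Kcnc2 was lower in cells that carried non-neuronal markers. Its mean log2(CPM + 1) was 8.25 ± 1.59 in the 33 cells without at least 3 such markers and 7.04 ± 1.82 in the 32 cells with them. The former hold 7 of the 9 cells with high CPM sums and the latter 2, and without those the means were 7.67 ± 1.18 (n = 26 cells) and 7.02 ± 1.88 (n = 30 cells). The medians of these 26 and 30 cells were closer, at 7.74 and 7.49, and the 30 include chow neuron 45, the cell at 0. The means of the 33 and the 32 cells were 6.25 ± 2.14 and 6.66 ± 1.74 for Kcnc1, and 6.58 ± 2.10 and 6.63 ± 1.50 for Kcnc4. These gaps are within the SD over cells, which is a spread of single cells and not the error of a difference between means. In cells without these markers Kcnc2 led 21 (63.6%, 45.1% to 79.6%), Kcnc4 11 (33.3%) and Kcnc1 1 (3.03%), whereas in cells with them the counts were 11, 16 and 5. Without the 9 cells the counts were 16, 9 and 1 of 26 cells, and 11, 14 and 5 of 30. The part of the RNA of other cells in these values was not tested.

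The levels of the members were weakly related over all cells. Over the 65 cells, as a description and with every point from its own library, Kcnc1 and Kcnc2 had Pearson's r of 0.02 and Spearman's rho of 0.04, Kcnc1 and Kcnc4 0.12 and 0.09, and Kcnc2 and Kcnc4 0.16 and 0.19. Without the 9 cells with high CPM sums, rho was -0.10, -0.08 and 0.08. In the 33 cells without at least 3 non-neuronal markers the values were higher for 2 pairs, with r of 0.42 and rho of 0.35 for Kcnc2 and Kcnc4, and r of 0.32 and rho of 0.23 for Kcnc1 and Kcnc2. These held 7 of the 9 cells, and in the other 26 r was 0.23 and 0.15 and rho 0.10 and -0.03. Against the sum of CPM in a cell, rho was 0.42 for Kcnc1, 0.23 for Kcnc2 and 0.25 for Kcnc4. These values were 0.31, -0.02 and 0.002 without the 9 cells, and their cause was not tested. Against log10 of the reads rho ran from -0.19 for Kcnc1 to 0.19 for Kcnc2. Against the 6 HSD2 identity genes rho over all cells ran from -0.42 for Kcnc2 with the neuropeptide gene Cartpt, which was -0.31 without the 9 cells, to 0.35 for Kcnc4 with the glutamate transporter gene Slc17a6, which was 0.26 without them.

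**Figure D4:**
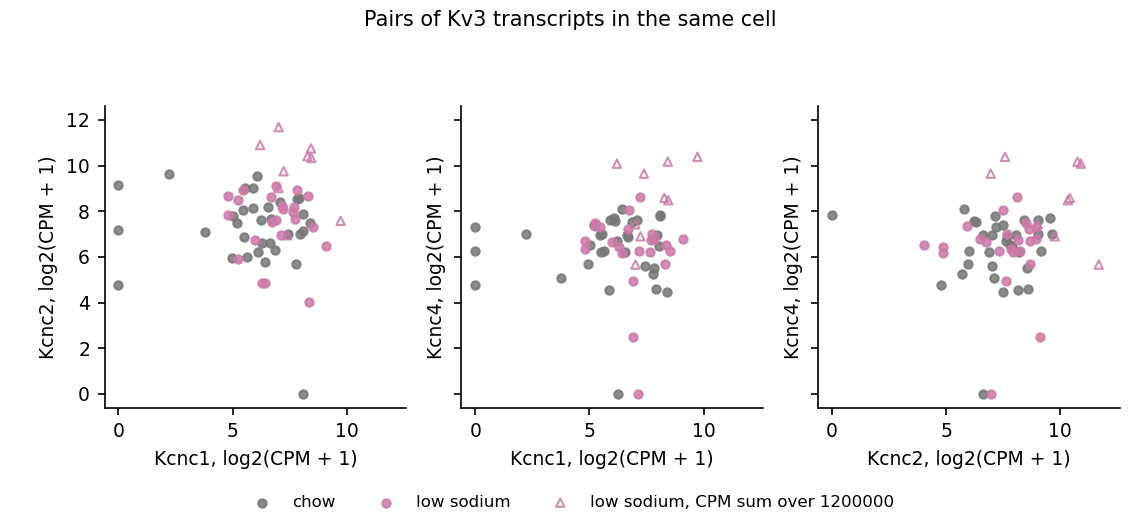
Levels of each pair of Kv3 members in the same cell, as log2(CPM + 1) on both axes, 1 point per cell by diet, with open triangles for the 9 low-sodium cells whose CPM sum to over 1200000. The points form a round cloud in each panel (rho 0.04, 0.09 and 0.19), with few cells at 0 on either axis.

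The genes whose levels were most like those of each member were different for the 3, apart from Impact, a regulator of translation under amino acid shortage. They were the 5 of 10451 ranked genes with the highest Spearman's rho over 65 cells. No chance level was worked out for the top of so long a ranking, so the lists and their small overlap are a description only. For Kcnc1 they were Elavl3, a neuronal RNA-binding protein (0.54), Shank1, a postsynaptic scaffold (0.51), the microtubule protein gene Map1a (0.50), Herc2, a ubiquitin ligase (0.49), and Atp9a (0.49). For Kcnc2 they were Usp9x, a deubiquitinase (0.56), Dlg2, a postsynaptic scaffold (0.56), Shisa7 (0.55), Impact (0.55) and the dendritic microtubule protein gene Map2 (0.54). For Kcnc4 they were Crlf3 (0.53), Impact (0.52), Dnm1l, which acts in mitochondrial fission (0.50), Mgat4a (0.49) and Mfsd14b (0.49). Without the 9 cells these values ran from 0.34 for Mgat4a to 0.61 for Elavl3. Within diets Dnm1l had a rho of 0.16 over chow cells against 0.74 over low-sodium cells, and Mfsd14b 0.29 against 0.67. For the other genes it lay between 0.35 and 0.59 within either diet. These subsets are parts of the same 65 cells that ranked the genes, so their values are no independent check.

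The diet comparison asks whether sodium shortage, the state that raises aldosterone, goes with other Kv3 levels. Kcnc1 was at 5.80 ± 2.29 in chow (n = 33 cells) and 7.12 ± 1.22 in low sodium (n = 32 cells), which is 1.32 higher on the log2(CPM + 1) scale. Without the 9 cells it was 1.07, and with CPM scaled to sum to 1000000 in every cell 1.11. Over 10726 named genes with a mean of at least 1, 3.93% were at least 1 higher in low sodium and 6.99% at least 1 lower, or 2.96% and 6.73% without the 9 cells. A difference as high as that of Kcnc1 was found for 1.27% of genes, or 2.25% without the 9 cells. The medians differed by 0.91, the log2 ratio of mean CPM plus 1 was 0.83, and in libraries thinned to 50000 reads the difference was 0.77, all under the limit of 1.

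Kcnc2 was at 7.22 ± 1.75 on chow and at 8.09 ± 1.76 on low sodium. The difference was 0.87 over all cells, 0.24 without the 9 cells, and 1.28 among cells without non-neuronal markers, which include 7 of the 9. Kcnc4 was at 6.31 ± 1.55 on chow and at 6.92 ± 2.03 on low sodium, 0.61 higher, and the difference was -0.046 without the 9 cells. In the 9 cells Kcnc2 had a mean of 9.71 ± 1.58 and Kcnc4 of 8.59 ± 1.65, against 7.46 ± 1.41 and 6.26 ± 1.79 in the other 23 low-sodium cells. A difference as high as these was found for 5.85% of genes for Kcnc2 and 12.5% for Kcnc4, and for 27.0% and 46.7% without the 9 cells. The diet differences of all 3 members over all cells are smaller than the SD over the chow cells. For Kcnc1 the difference was 1.32 and the SD 2.29 in chow and 1.22 in low sodium. An SD over cells is a spread of single cells and does not measure the error of a difference between means. The median difference over all 10726 genes was -0.12, and -0.27 with CPM scaled to 1000000. On the scaled values the difference of Kcnc2 was 0.65 and that of Kcnc4 0.38, both above that shift.

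**Figure D5:**
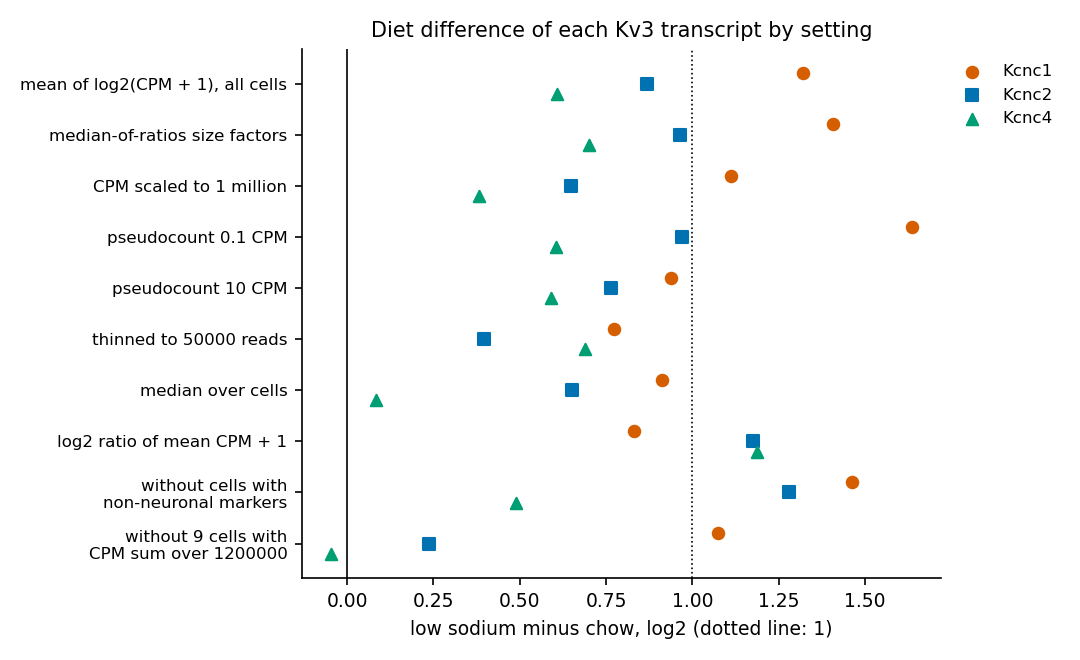
Difference between diets (low sodium minus chow, log2) of Kcnc1, Kcnc2 and Kcnc4 on the horizontal axis under each setting on the vertical axis, 1 point per gene and setting, with a solid line at 0 and a dotted line at 1. Kcnc1 runs from 0.77 to 1.64, Kcnc2 from 0.24 to 1.28 and Kcnc4 from -0.046 to 1.19, and the lowest Kcnc2 and Kcnc4 values are those without the 9 cells.

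No listed gene of fast firing or of Kv3 regulation differed by 1 or more between diets. Of 14 genes whose products bind, phosphorylate, transport or regulate Kv3 channels, 10 were listed, 3 were higher in low sodium, none passed 1 in either direction, and the median difference was -0.29 (4 higher and -0.09 without the 9 cells). Over all 10726 genes 42.1% were higher in low sodium, or 43.1% without the 9 cells. Over all cells 3.93% of them were at least 1 higher and 6.99% at least 1 lower. With shares this low, lists of 10 and 8 genes can hold no call without differing from the rest. Ank3 (ankyrin G, which anchors channels at the axon initial segment) was the highest at 0.68 (0.50 without the 9 cells) and Csnk2a1, a catalytic subunit of casein kinase 2, the lowest at -0.54 (-0.065 without them). Of 9 genes of fast firing, 8 were listed, 5 were higher, none passed 1, and the median was 0.25, but without the 9 cells 3 were higher and the median was -0.03. Their highest was Fgf14, which encodes a partner of sodium channels, at 0.69 (-0.0033 without the 9 cells). Their lowest was Pvalb, the calcium buffer parvalbumin, at -0.99986, just short of the limit, and it was at -1.11 with scaled CPM and at -0.54 without the 9 cells.

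Other potassium channel pore genes split in both directions. Of 27 others, 21 were listed and 20 had a mean of at least 1. Of these, 11 were higher in low sodium, and the median difference was 0.13 (13 higher and 0.10 without the 9 cells). Over all cells 1 of the 20 was at least 1 higher and 1 at least 1 lower, where the shares over all genes were 3.93% and 6.99%. Without the 9 cells the counts were 0 and 2, and the shares 2.96% and 6.73%. Counts this small do not set these genes apart from the rest. Kcnq3, a subunit of the M-current channel, was 1.07 higher (-0.09 without the 9 cells), and Kcnd2, the A-type channel Kv4.2, was 1.09 lower in low sodium (difference -1.09, and -0.58 without the 9 cells). Without the 9 cells Kcnq5 (-1.02) and Kcnh7 (-1.15) passed the limit instead, genes named here after their values were seen. Of 9 genes of silent subunits, which modify other channels and carry no current alone, 3 were listed. Only Kcnv1 had a mean of at least 1 (1.07), with a difference of -1.28 (-1.11 without the 9 cells). Over all genes 6.99% were at least 1 lower, and 1 call does not set this list apart. Several of the named genes were at 0 in most cells. Of the 65 cells, Kcnq3 was above 0 in 16, Kcnd2 in 48, Kcnq5 in 36, Kcnh7 in 24 and Kcnv1 in 14.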

How the data were processed

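The authors deposited log2(CPM + 1) per gene and cell. The submitters' processing notes name featureCounts 1.4.6, HISAT2 2.0.5, SAMtools 0.1.19, Picard 2.5.0 and bcl2fastq, and the builds GRCm38 and mm10. Not given in the sources used here are strand, annotation, cell filters and the scaling total. Of 12015 gene lines, 140 repeated or unnamed lines were left out of all but totals. CPM came from undoing the log2. The deposited values lie on a log2 grid of 2 decimals, and in each cell at least 97.0% of CPM up to 20 steps were whole multiples of the smallest step within 0.1, so 1 step was taken as 1 read (0.161 to 16.1 CPM). Lengths are merged exons of GENCODE M21 (GRCm38), found for 11427 of 11875 names. Calls of diet differences are by size alone (at least 1), over genes with a mean of at least 1. The pseudocount is 1 CPM. No molecular identifiers are given, so intervals (Clopper-Pearson, 95%) cover counting error only.

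Named from the lists were genes with a difference of at least 1, the 4 highest pore genes per kb, the ends of the other lists, and the 5 genes most like each member among genes above 0 in at least 16 cells. Some items that these rules took are not reported here. The members and lists were chosen with earlier results of these data known. The sum limit of 1200000 also came from them. Scripts were tested on simulated data (python 3.11.15, numpy 2.4.6, scipy 1.17.1, pandas 2.3.3). Alternatives were other pseudocounts, scalings, thinning, medians, detection limits, lengths and sets of cells. Doublets were not called. Cells were picked by hand, which does not by itself show that a library holds 1 cell, and 32 of 65 cells carried at least 3 non-neuronal markers above 10 CPM.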

Additional observations from a re-analysis of the deposited data

How the results depend on the processing

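Differences between diets have no test, and the limit of 1 is a size. That of Kcnc1 fell under it with a pseudocount of 10 CPM (0.94), in libraries thinned to 50000 reads (0.77), as medians (0.91) and as a ratio of means on the log2 scale (0.83), and kept its side in the other 5 settings (1.07 to 1.64). Kcnc2 passed it as the ratio of means (1.18) and without cells with non-neuronal markers (1.28). Kcnc4 passed it as the ratio of means (1.19) and changed sign when the 9 cells were left out (-0.046). By gene, the share of cells led by Kcnc1 was 20% by CPM not divided by length, 24.6% per coding kb and 1.54% for a lead of at least 2 times. The same shares for Kcnc4 were 18.5%, 24.6% and 23.1%, and that of Kcnc2 for a lead of at least 2 times was 23.1%. The share of cells with Kcnc2 was 100% without cells with non-neuronal markers. Lengths of the longest transcript were added after the data were seen, and gave led shares of 7.69%, 61.5% and 30.8% for Kcnc1, Kcnc2 and Kcnc4. The causes were not tested. Depth limits the zeros of shallow libraries. No paired analysis was possible because the labels pair no cells and no test was run.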
